A study of Homo sapiens with 8 samples.

Results

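The 10 genes described here carry out bile acid synthesis and transport or make up the farnesoid X receptor (FXR) circuit that controls them. They are the receptor NR1H4 (FXR) and its target NR0B2 (SHP), the enzymes CYP7A1, CYP8B1, CYP27A1 and CYP7B1, and the transporters ABCB11 (BSEP), SLC10A1 (NTCP), SLC51A (OSTα) and SLC51B (OSTβ). They were picked out of the count table by symbol, as a set of genes of one pathway. Of the 10 genes, 9 had an entry in the table of raw counts, which covered 15767 genes, and 5 had enough counts to be tested. These 5 were NR1H4, NR0B2, CYP27A1, SLC51A and SLC51B.

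Hepatocytes make bile acids from cholesterol. The classical pathway begins with CYP7A1, and CYP8B1 then directs it to cholic acid, while the alternative pathway begins with the sterol 27-hydroxylase CYP27A1 and continues with CYP7B1. FXR is the nuclear receptor for bile acids and acts as a heterodimer with RXR. It induces SHP, which represses synthesis genes, and it induces the exporters BSEP, OSTα and OSTβ. NTCP takes bile acids up from portal blood, BSEP pumps them into the canaliculus, and OSTα and OSTβ form a heteromer that lets them leave across the basolateral membrane.

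RNA-seq was performed on wildtype HuH7 cells, an established human hepatoma line. The cells of all 8 samples were kept in glucose-free DMEM at 1% oxygen for 6 h and then returned to normal oxygen for 6 h, a model of ischemia/reperfusion. During that second period 4 samples received DMSO (I/R+DMSO) and 4 received the ginsenoside Rk2 at 20 µM (I/R+Rk2). No normoxic library was analysed here, so the values say how Rk2-treated and DMSO-treated cells differed after deprivation, not how deprivation itself acted. The labels do not say whether the 4 samples of a group came from separate cultures. The p-values therefore measure the spread between these samples, which may be technical. In bulk RNA, fewer cells of a kind and less RNA per cell cannot be told apart.

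Library totals ranged from 16374082 to 21447045 counts in 7 libraries, and I/R+Rk2 replicate 1 had 30310479. A count of 3, taken as the floor for one library, corresponded to 0.0983 to 0.182 CPM. CPM are counts scaled to the library total multiplied by its TMM normalization factor. This floor covers counting error only. All 10 hepatocyte markers fixed for the check, among them ALB, APOB and SERPINA1, were detected, with a summed level of 11770 to 12860 CPM in I/R+DMSO and 12620 to 12990 CPM in I/R+Rk2. The largest part was AFP, at 5675 to 6319 CPM and 5802 to 6048 CPM. HP was the lowest of them, at 4.05 to 5.68 CPM and 4.75 to 6.66 CPM. The 6 macrophage markers summed to 666.5 to 730.7 CPM and 633.5 to 724.9 CPM. Most of this was LYZ, at 621.0 to 675.4 CPM and 577.3 to 674.3 CPM. CD68 had 44.6 to 56.3 CPM and 40.8 to 55.8 CPM, and CD14 at most 1.13 CPM. PTPRC, CD163 and CSF1R were at 0. The 6 cholangiocyte markers gave 327.9 to 351.5 CPM and 335.3 to 349.1 CPM. Most of this was SOX9, at 174.9 to 214.4 CPM and 216.9 to 227.0 CPM, and KRT7 and CFTR had too few counts to be tested. The 6 stellate cell and fibroblast markers gave 20.7 to 24.1 CPM and 20.7 to 23.2 CPM, most of it COL1A2, with DCN and LRAT at 0. The 6 markers of ileal enterocytes, the other cell type with high FXR, gave 73.1 to 81.4 CPM and 67.9 to 81.6 CPM. ANPEP and CDX2 made up most of this, and FABP2, CDX1 and SLC5A1 were at 0. The summed I/R+DMSO and I/R+Rk2 ranges overlapped for each of the 5 marker lists, but single markers moved. Of the 22 tested markers 1 was higher and 4 were lower in I/R+Rk2 (adjusted p below 0.05, edgeR). Of all 12910 tested genes 11.0% were higher and 7.24% lower, or 18.2% in either direction. APOB rose from a range of 864.1 to 1300.0 CPM to 1487 to 1780.0 CPM. KRT19 fell from 59.1 to 70.2 CPM to 41.2 to 45.4 CPM, and CDX2 from 27.2 to 28.6 CPM to 20.4 to 22.6 CPM. FGB and CD14 also fell, CD14 to at most 0.506 CPM. The part of these markers in the results below was not tested. I/R+DMSO replicate 1 stood apart in precision, with a voom sample weight of 0.353 against 0.813 to 1.47 in the others.

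The promoter letters of these genes were read because FXR can act on a gene directly through a paired response element. The element searched for was AGGTCANTGACCT, an inverted repeat of AGGTCA with one free base (N) between the copies, which reads alike on both strands. The 250 bases before one RefSeq transcription start per gene (GRCh38.p14) were available for 6 of the 10 genes. For NR1H4, SLC51A and CYP27A1 this window lay inside the gene span given below, downstream of the annotated gene start. Both strands were searched, and the 12 fixed letters were compared. The whole element was in 0 of 35116 promoters of the same length. The best matches in ABCB11 and SLC51B, an exporter close to 0 and an abundant one in these cells, differed from it at 2 of the 12 letters, and 0.945% of all promoters held a match as close. Both promoters are shown 5′ to 3′ on the strand of the gene, ABCB11 at chr2:169031325-169031574 on the minus strand and SLC51B at chr15:65045137-65045386 on the plus strand, with the closest match in capitals.
ABCB11: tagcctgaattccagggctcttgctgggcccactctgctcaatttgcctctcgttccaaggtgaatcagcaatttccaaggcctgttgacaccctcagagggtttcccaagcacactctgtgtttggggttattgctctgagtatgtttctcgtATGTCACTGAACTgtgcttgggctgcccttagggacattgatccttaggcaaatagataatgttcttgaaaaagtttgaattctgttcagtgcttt
SLC51B: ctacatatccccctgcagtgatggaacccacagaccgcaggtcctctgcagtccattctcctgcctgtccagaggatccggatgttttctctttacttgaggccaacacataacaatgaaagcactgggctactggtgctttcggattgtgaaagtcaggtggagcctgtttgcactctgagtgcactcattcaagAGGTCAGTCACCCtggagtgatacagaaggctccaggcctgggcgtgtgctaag
The match lay 96 to 84 bases before the start in ABCB11 and 54 to 42 bases before it in SLC51B. SLC10A1, which had almost no counts, also held a match with 2 mismatches, AGGTCAGGGAGCT. In SLC51A the best match had 4 mismatches, a closeness reached by 46.5% of all promoters, and NR1H4 also had 4 and CYP27A1 had 5. A copy of AGGTCA alone was present in NR1H4, SLC10A1 and SLC51B, and in 12.1% of all promoters. These matches describe letters in one window and are not evidence of binding. A site in use that departs further from the searched letters would not be in capitals. ABCB11, SLC10A1 and SLC51B, which shared the closest class of match, lay at both ends of the range of transcript levels described next.

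The 10 genes separated into 5 that were measurable in this line and 5 at or near 0. Levels between genes were compared in FPKM, the authors' length-normalized unit, over all 8 libraries. SLC51B had the highest level with 14.0 ± 1.43 FPKM (SD, n = 8), followed by NR1H4 with 12.8 ± 1.89, NR0B2 with 6.10 ± 1.36, CYP27A1 with 5.15 ± 0.451 and SLC51A with 2.70 ± 0.502 FPKM. These means lay at the 61.7, 59.4, 40.5, 36.6 and 25.3 percentiles of the tested genes. The FPKM ranges of SLC51B and NR1H4 overlapped, as did those of NR0B2 and CYP27A1, and neighbours in both pairs changed places with the group. In I/R+Rk2 alone the mean of NR1H4 (14.3 FPKM) lay above that of SLC51B (13.4 FPKM), and in I/R+DMSO alone the mean of CYP27A1 (5.26 FPKM) lay above that of NR0B2 (4.88 FPKM). The range of NR1H4 (10.3 to 15.3 FPKM) lay above that of NR0B2 (4.64 to 7.91 FPKM), and the range of CYP27A1 (4.72 to 6.19 FPKM) above that of SLC51A (2.15 to 3.61 FPKM). The remaining 5 genes lay far lower, with at most 0.0574 FPKM in any library.

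**Figure D1:**
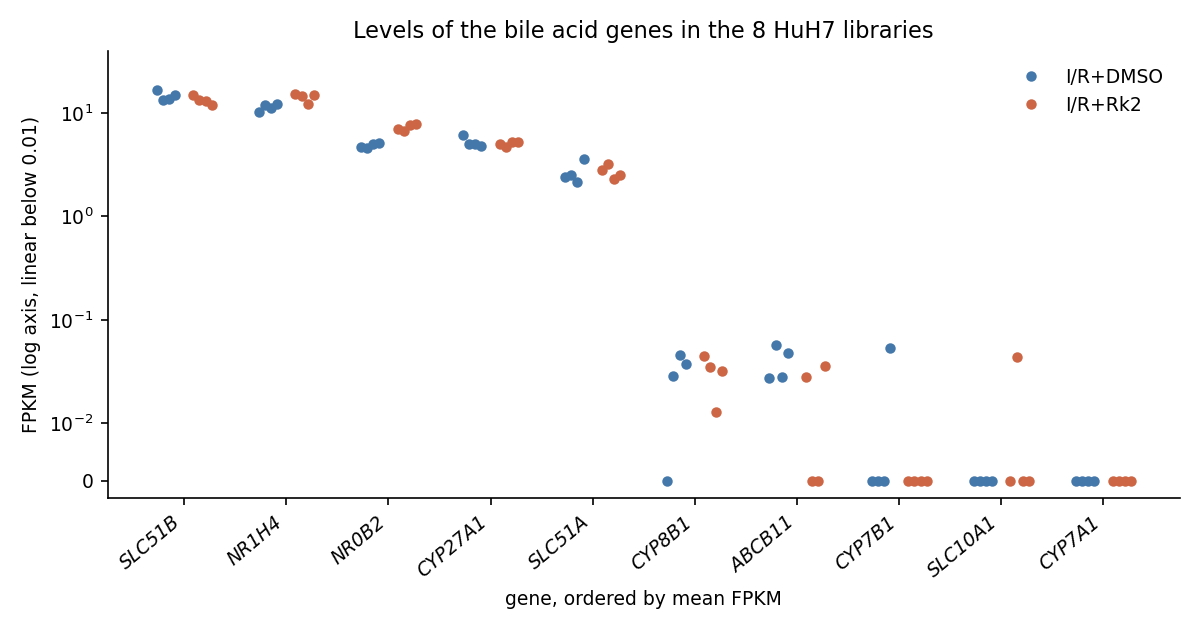
FPKM of the 10 genes in each library, on a log axis that is linear below 0.01, with genes ordered by their mean and points coloured by group. SLC51B, NR1H4, NR0B2, CYP27A1 and SLC51A lie above 2 FPKM in all 8 libraries, whereas CYP8B1, ABCB11, CYP7B1, SLC10A1 and CYP7A1 lie below 0.06 FPKM.

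The order depended in part on the length used. When CPM were divided by all annotated exon bases of a gene, SLC51B gave 16.8, NR1H4 7.33, NR0B2 7.31, CYP27A1 4.67 and SLC51A 0.491 CPM per kilobase, so NR1H4 and NR0B2 were nearly level and SLC51A stood further below the others. The annotated exons of SLC51A cover 5293 bases and those of SLC51B 940. The OSTβ transcript thus exceeded that of its partner OSTα on either scale. In FPKM the ratio of SLC51B to SLC51A was 5.66 ± 1.21 without Rk2 and 4.96 ± 0.658 with it (SD, n = 4 each), with overlapping ranges of 4.14 to 6.87 and 4.12 to 5.64.

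The comparison of I/R+Rk2 with I/R+DMSO asked whether Rk2 given during reoxygenation changed these genes. One of the 5 tested genes, NR0B2, was higher in I/R+Rk2 at an adjusted p below 0.05 (edgeR), and 0 of the 5 were lower, also at an unadjusted p below 0.05 and in DESeq2. Over all 12910 tested genes 18.2% were called, 11.0% higher and 7.24% lower, so 1 call among 5 genes is close to the background. The CPM ranges of the groups did not overlap in 2 of the 5 genes, NR0B2 and NR1H4, against 28.3% of all tested genes. The other 3, CYP27A1, SLC51A and SLC51B, had overlapping ranges.

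**Figure D2:**
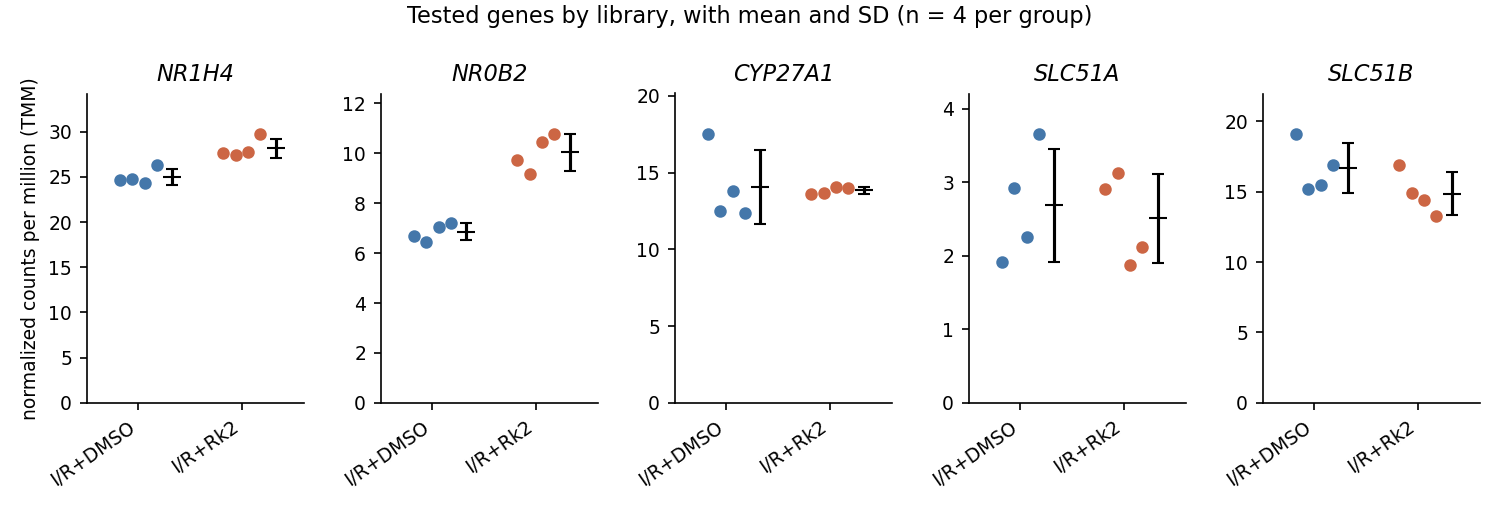
TMM-normalized CPM of the 5 tested genes, with a point per library in the order of replicates 1 to 4, and the mean and SD of each group (n = 4) beside the points; each axis starts at 0. The I/R+Rk2 points lie above the I/R+DMSO points in NR0B2 and NR1H4 and are mixed with them in CYP27A1, SLC51A and SLC51B.

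NR1H4 encodes FXR itself and lies on chromosome 12, at chr12:100473708-100564413 on the plus strand (GRCh38, GENCODE v29). Its normalized level in I/R+DMSO was 24.6, 24.7, 24.4 and 26.3 CPM in replicates 1 to 4. In I/R+Rk2 it was 27.6, 27.5, 27.8 and 29.8 CPM. All 4 I/R+Rk2 libraries lay above all 4 I/R+DMSO libraries, but the nearest libraries differed by little, and I/R+Rk2 replicate 4 lay above the other 3 of its group. The means were 25.0 ± 0.892 and 28.1 ± 1.08 CPM (SD, n = 4 each). The log2 fold change was 0.17 (standard error 0.0534, 95% interval 0.048 to 0.29), a fold of 1.13, and did not pass the threshold (adjusted p = 0.0597, edgeR with Benjamini-Hochberg adjustment). A p that misses the threshold does not show that FXR mRNA was equal in the groups. NR1H4 passed the threshold in 4 of 19 alternatives, one of them the fit without I/R+DMSO replicate 4 (adjusted p = 0.0490, edgeR). In the deposited FPKM the difference was larger, with 11.4 ± 0.851 against 14.3 ± 1.42 FPKM (SD, n = 4 each), and the ratio of FPKM to CPM for this gene was 0.455 ± 0.0269 in I/R+DMSO and 0.507 ± 0.0499 in I/R+Rk2. The highest I/R+DMSO library, at 12.16 FPKM, and the lowest I/R+Rk2 library, at 12.18 FPKM, almost touched.

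NR0B2 encodes SHP, the corepressor through which FXR lowers bile acid synthesis, and lies at chr1:26911489-26913966 on the minus strand. In I/R+DMSO it had 126, 137, 128 and 154 counts, or 6.69, 6.45, 7.05 and 7.23 CPM. In I/R+Rk2 it had 297, 173, 173 and 213 counts, or 9.73, 9.17, 10.5 and 10.8 CPM. Every I/R+Rk2 library lay above every I/R+DMSO library, with a gap between the groups that was wider than the range within either. NR0B2 rose from 6.86 ± 0.348 to 10.0 ± 0.727 CPM (SD, n = 4 each). Its log2 fold change was 0.55 (standard error 0.0811, 95% interval 0.36 to 0.73), which is a fold of 1.46 with bounds of 1.29 and 1.66 (adjusted p = 0.00407, edgeR with Benjamini-Hochberg adjustment). Values in FPKM moved alike, from 4.88 ± 0.256 to 7.32 ± 0.570 (SD, n = 4 each). NR0B2 was past the threshold in all 19 alternatives run, with log2 fold changes of 0.50 to 0.65. No exon of another annotated gene overlaps the exons of NR0B2 or NR1H4. The FPKM ratio of NR1H4 to NR0B2 was 2.33 ± 0.173 in I/R+DMSO (range 2.19 to 2.57) and 1.96 ± 0.282 in I/R+Rk2 (range 1.59 to 2.19), so on the FPKM scale the receptor transcript was the more abundant of the pair in all 8 libraries.

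**Figure D3:**
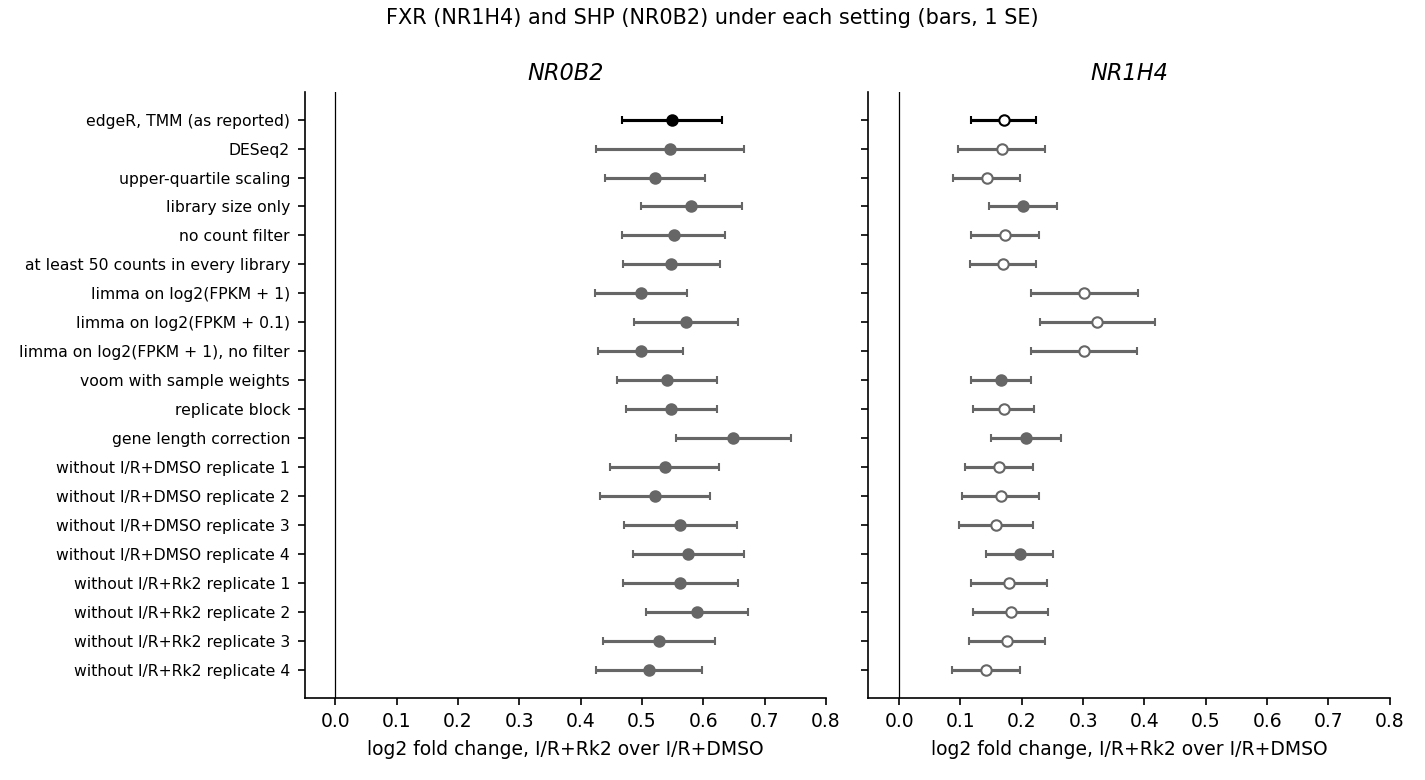
Log2 fold change of NR0B2 and NR1H4, I/R+Rk2 over I/R+DMSO, with 1 standard error, in the reported edgeR fit and 19 alternatives; filled points have an adjusted p below 0.05 and open points do not. NR0B2 is filled throughout, between 0.50 and 0.65, while NR1H4 lies between 0.14 and 0.32 and is filled in 4 alternatives.

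Among the synthesis enzymes only CYP27A1, the mitochondrial sterol 27-hydroxylase of the alternative pathway, could be tested. It lies at chr2:218781749-218815293 on the plus strand. Its level was 17.5, 12.5, 13.8 and 12.3 CPM in I/R+DMSO and 13.6, 13.7, 14.0 and 14.0 CPM in I/R+Rk2. Replicate 1 of I/R+DMSO was the highest of all 8 libraries, and the 4 I/R+Rk2 libraries fell within the I/R+DMSO range. The means were 14.1 ± 2.41 and 13.8 ± 0.220 CPM (SD, n = 4 each), and the log2 fold change was -0.02 (95% interval -0.28 to 0.24, adjusted p = 0.923, edgeR). Without I/R+DMSO replicate 1, the library with the lowest sample weight, it was 0.10 (adjusted p = 0.315, edgeR). The interval leaves room for a fold of 0.823 to 1.18.

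The other 3 enzymes had few counts or none. CYP7A1, the rate-limiting enzyme, had no entry in the count table and was listed at 0 FPKM in all 8 libraries. The count table held only genes with at least 1 count in total, and all 4012 FPKM genes outside it were at 0. CYP8B1, the sterol 12α-hydroxylase, at chr3:42856005-42876165 on the minus strand, had 0, 3, 4 and 4 counts in I/R+DMSO and 7, 4, 2 and 3 counts in I/R+Rk2. The groups overlapped, and the mean difference, I/R+Rk2 minus I/R+DMSO, was 0.0412 CPM (two-sided exact permutation p = 0.514). CYP7B1, the oxysterol 7α-hydroxylase that follows CYP27A1, had 4 counts in I/R+DMSO replicate 4 and 0 in the other 7 libraries. A difference in CYP8B1 or CYP7B1 was not detectable at this depth.

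ABCB11 and SLC10A1 were also near 0. ABCB11, the bile salt export pump, at chr2:168915498-169031324 on the minus strand, had 4, 7, 3 and 6 counts in I/R+DMSO and 5, 0, 0 and 5 counts in I/R+Rk2. Every I/R+DMSO library thus had counts and I/R+Rk2 replicates 2 and 3 had none, yet the ranges overlapped, and the mean difference was -0.143 CPM (two-sided exact permutation p = 0.114). With 4 libraries against 4 the smallest p this test allows is 0.0286. SLC10A1, at chr14:69775417-69797289 on the minus strand, encodes NTCP, the main sodium-dependent uptake carrier, and had 2 counts in I/R+Rk2 replicate 2 and 0 elsewhere. No fold is given for CYP8B1, CYP7B1, ABCB11 and SLC10A1, whose counts were few.

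Both genes of the basolateral exporter could be tested, with SLC51B the higher. SLC51B, at chr15:65045370-65053396 on the plus strand, had 19.1, 15.2, 15.5 and 16.9 CPM in I/R+DMSO and 16.9, 14.9, 14.4 and 13.3 CPM in I/R+Rk2. The groups overlapped, with I/R+DMSO replicate 1 the highest and I/R+Rk2 replicate 4 the lowest. The means were 16.7 ± 1.78 and 14.9 ± 1.53 CPM (SD, n = 4 each), and the log2 fold change was -0.16 (standard error 0.103, 95% interval -0.40 to 0.071, adjusted p = 0.297, edgeR). The interval excludes a rise as large as that of NR0B2, since its upper bound corresponds to a fold of 1.05. This is a bound on SLC51B alone in the reported fit, and the difference between the changes of NR0B2 and SLC51B was not tested. After a correction for gene length the log2 fold change of SLC51B was -0.03 (adjusted p = 0.807, edgeR).

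SLC51A, at chr3:196211487-196243178 on the plus strand, had 1.91, 2.92, 2.26 and 3.66 CPM in I/R+DMSO and 2.92, 3.13, 1.88 and 2.13 CPM in I/R+Rk2. The libraries of the groups were interleaved. The means were 2.69 ± 0.771 and 2.51 ± 0.604 CPM (SD, n = 4 each), with a log2 fold change of -0.09 (standard error 0.248, 95% interval -0.66 to 0.47, adjusted p = 0.823, edgeR). With 31 to 89 counts per library this was the least precise of the 5 tests, and its sign turned under other settings. In the annotation, 7.35% of the exon bases of SLC51A overlap PCYT1A and 6.38% of those of SLC51B overlap RASL12, each on the opposite strand. Whether reads were counted by strand is not given in the sources used here, so reads in those stretches may belong to either gene.

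The wider pathway was described with 4 lists of 71 different genes, of which 61 were tested. The lists were chosen with earlier results of these data known. The shares given here and for each list below therefore describe these genes and are not a test of the pathway. Among the 61, 14 were higher and 1 was lower in I/R+Rk2 at an adjusted p below 0.05 (edgeR), or 23.0% and 1.64%, against 11.0% and 7.24% of all tested genes. The median log2 fold change of the 61 was 0.05, and that of all tested genes was -0.0021. Longer genes had higher log2 fold changes (rho 0.388 across genes, Spearman), and some of the calls below were lost after a correction for length. The 15 calls became 9, 8 and 9 without I/R+Rk2 replicate 2, 3 or 4, and 5 to 8 with limma on FPKM. The groups did not overlap in CPM in 23 of the 61 tested genes, or 37.7%, against 28.3% of all tested genes.

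**Figure D4:**
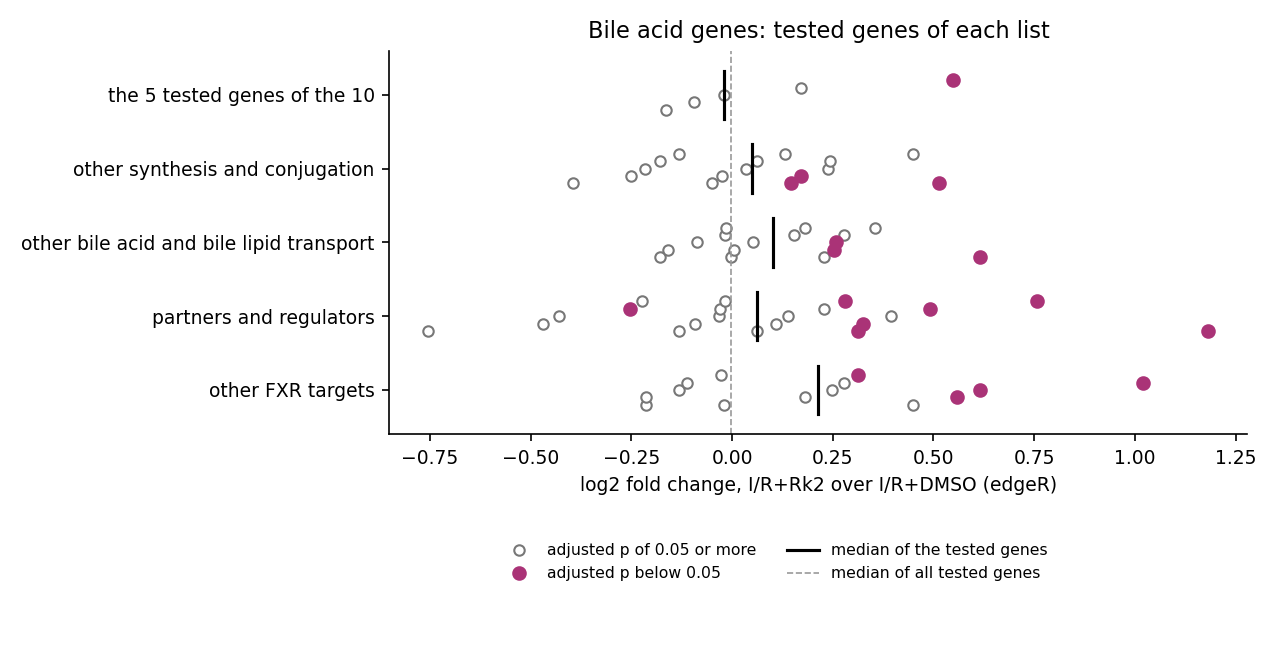
Log2 fold change, I/R+Rk2 over I/R+DMSO, of every tested gene in the set of 10 and in the 4 wider lists, with filled points for an adjusted p below 0.05, a bar at each median and a dashed line at the median of all tested genes; FGF19, SLCO1B3 and some others are in more than one list. The medians lie between -0.02 and 0.21, and the calls lie to the right of 0 except PRMT1 among the regulators.

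Other targets of FXR gave 4 higher and 0 lower of 14 tested, with a median log2 fold change of 0.21. This is 28.6% higher, against 11.0% higher and 7.24% lower of all tested genes. At an unadjusted p below 0.05 PLTP alone was lower, and with DESeq2 none was. VLDLR, the very low density lipoprotein receptor, rose from 17.5 ± 1.17 to 35.4 ± 2.07 CPM (SD, n = 4 each), or by 1.02 in log2 units (adjusted p = 0.000145, edgeR). SULT2A1, the sulfotransferase that conjugates bile acids and steroids, rose from 13.5 ± 0.529 to 19.8 ± 1.35 CPM, or by 0.56 in log2 units (adjusted p = 0.00198, edgeR). Both were past the threshold in all 19 alternatives. FGF19, the hormone that signals from FXR to the liver receptor FGFR4, rose from 21.7 ± 2.14 to 27.0 ± 0.399 CPM (log2 fold change 0.31, adjusted p = 0.0255, edgeR). SLCO1B3, the uptake carrier OATP1B3, went from 4.04 ± 0.236 to 6.20 ± 1.13 CPM (log2 fold change 0.61, adjusted p = 0.0217, edgeR). In the annotation 54.5% of the SLCO1B3 exon bases are shared with AC011604.2 on the same strand, so its value is uncertain, and 7.90% of those of VLDLR overlap VLDLR-AS1 on the opposite strand. The FGF19 call was lost without I/R+DMSO replicate 3 or any I/R+Rk2 library (adjusted p up to 0.0645, edgeR), and that of SLCO1B3 without replicate 2 or 3 of either group (up to 0.0568). The SLCO1B3 call was also lost with a replicate block (adjusted p = 0.0642, edgeR) and on FPKM (adjusted p up to 0.303, limma). It held in 11 of 19 alternatives. FETUB and FABP6 of this list were not tested, FABP6 being listed at 0.

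Partners and regulators of FXR gave 6 higher and 1 lower of 21 tested, with a median of 0.06. These shares were 28.6% and 4.76%, against 11.0% and 7.24% of all tested genes. At an unadjusted p below 0.05 there were 4 lower, NR1H3, NR1I2, PRMT1 and VDR, and DESeq2 called PRMT1 alone lower. MAFG, a small MAF repressor of bile acid synthesis genes, rose from 61.2 ± 3.19 to 86.1 ± 1.96 CPM (log2 fold change 0.49, adjusted p = 0.000814, edgeR) and was past the threshold in all 19 alternatives. NR5A2 (LRH-1), an activator of CYP7A1 and of SHP, rose from 26.2 ± 6.49 to 44.3 ± 4.66 CPM (log2 fold change 0.76, adjusted p = 0.0235, edgeR). SIRT1, a deacetylase that acts on FXR, rose from 33.0 ± 2.197 to 41.4 ± 0.447 CPM (log2 fold change 0.33, adjusted p = 0.00805, edgeR). KLB, the β-Klotho coreceptor of FGF19, differed by 0.28 in log2 units (adjusted p = 0.0171, edgeR), and FGF19 is in this list as well. PRMT1, an arginine methyltransferase and FXR coactivator, fell from 407.9 ± 25.9 to 342.3 ± 3.21 CPM (log2 fold change -0.25, adjusted p = 0.0107, edgeR). The calls of SIRT1 and PRMT1 each held in 16 of 19 alternatives and were lost on FPKM (adjusted p up to 0.101 and 0.0837, limma). PPARGC1A (PGC-1α), named after its values were seen, rose from 1.33 ± 0.527 to 3.03 ± 0.477 CPM (log2 fold change 1.18, adjusted p = 0.0299, edgeR). Small same-strand overlaps with SIRT7 and ADM5 cover 2.01% of the exon bases of MAFG and 7.63% of those of PRMT1. NR5A2 lost its call with replicate 3 of the DMSO group left out, or replicate 1, 3 or 4 of the Rk2 group (adjusted p up to 0.0666, edgeR). The call of KLB was lost without I/R+Rk2 replicate 2 or 4 (up to 0.0509), and that of PPARGC1A with replicate 1 or 2 of the DMSO group left out, or replicate 2, 3 or 4 of the Rk2 group (up to 0.0711). Under the length correction KLB went to 0.09 in log2 units (adjusted p = 0.167, edgeR). PPARGC1A had a log2 fold change of 0.98 there and missed the threshold (adjusted p = 0.0704, edgeR). Over the 16 alternatives that held PPARGC1A its log2 fold change ranged from 0.31 to 1.39, and its call held in 9.

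Other genes of synthesis and conjugation gave 3 higher and 0 lower of 16 tested, with a median of 0.05. The share higher was 18.8%, against 11.0% higher and 7.24% lower of all tested genes. Lower at an unadjusted p below 0.05 were 3, ACOT8, ACOX2 and HSD3B7, and with DESeq2 HSD3B7 alone was called lower. CYP39A1, the oxysterol 7α-hydroxylase that acts on 24-hydroxycholesterol, rose from 10.2 ± 0.803 to 14.6 ± 0.769 CPM (SD, n = 4 each), or by 0.51 in log2 units (adjusted p = 0.00468, edgeR), past the threshold in 18 of 19 alternatives. HSD17B4 and ABCD3, of peroxisomal side chain shortening and of peroxisomal import, differed by less, 0.15 and 0.17 in log2 units (adjusted p = 0.0247 and 0.0389, edgeR), past the threshold in 8 and 7 of 19 alternatives. After the length correction ABCD3 was at 0.11 (adjusted p = 0.0755, edgeR). Leaving out a library ended the call of HSD17B4 except for I/R+DMSO replicates 1 and 4 and that of ABCD3 except for I/R+DMSO replicates 2 and 4 (adjusted p up to 0.0703 and 0.0935, edgeR). CYP46A1 and CH25H were not tested, CYP46A1 with 2 counts in all and CH25H listed at 0.

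Other transporters of bile acids and bile lipids gave 3 higher and 0 lower of 16 tested, with a median of 0.10. Here too 18.8% were higher, against 11.0% higher and 7.24% lower of all tested genes. At an unadjusted p below 0.05 or with DESeq2, 0 were lower. ABCG2, an efflux pump of the canalicular membrane, rose from 34.4 ± 1.09 to 41.2 ± 1.32 CPM (log2 fold change 0.26, adjusted p = 0.00982, edgeR). Its call held in 16 of 19 alternatives and was lost on FPKM (adjusted p up to 0.189, limma). ABCC4 (MRP4), a basolateral exporter, differed by 0.25 in log2 units (adjusted p = 0.0296, edgeR), and by 0.09 after the length correction (adjusted p = 0.164, edgeR). The ABCC4 call held in 3 of the 8 fits without a library, leaving out replicate 1 or 4 of the DMSO group, or replicate 2 of the Rk2 group (adjusted p up to 0.0840 in the others, edgeR). On FPKM the call of ABCC4 was lost (adjusted p up to 0.199, limma). SLCO1B3 was the third. ABCG5, ABCG8, SLCO1B1, SLC10A2 and FABP6 of this list were not tested, with 32, 2 and 16 counts in all for the first named and no count entry for SLC10A2 and FABP6.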

How the data were processed

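Per the labels, an MGIEasy kit was used on 250 ng of RNA per sample. The authors deposited raw counts per gene, without normalization, and FPKM, which they normalized for length and library size. The submitters' processing notes name FastQC 0.11.5, HISAT2 2.2.1, StringTie 1.3.3 and build hg38. The counting tool, strand setting and annotation are not given in the sources used here. Symbols turned into dates, 22 among the counts with 0.111% of their sum, were left out. Groups came from the labels.

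Counts were tested in R 4.3.3 with the robust quasi-likelihood test of edgeR 4.0.16 after TMM scaling. A gene entered when 4 or more libraries held 10 or more of its counts, which left 12910, and the model held the treatment alone, with Benjamini-Hochberg adjusted p-values over these genes. Genes below that filter were compared by two-sided exact permutation of CPM where at least 3 libraries had counts. Alternatives used DESeq2 1.42.0, limma 3.58.1 on log2(FPKM + 1) and log2(FPKM + 0.1), voom sample weights, other scalings and filters, a loess correction for gene length, a replicate block and leaving out each library. Steps were tested on simulated data. All 10 genes are named, and from each wider list the 6 with the smallest p among those called. The genes and lists were chosen with earlier results of these data known. Positions and exon overlaps come from GENCODE v29, and promoters from RefSeq (GRCh38.p14).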

Additional observations from a re-analysis of the deposited data

Results flagged for a closer look

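One of 10 sets of 4 values, those of the 5 tested genes in each group, had a library far from the rest. For NR1H4 in I/R+Rk2, replicate 4 had 29.8 CPM and the other 3 libraries 27.5 to 27.8 CPM, so its gap to the nearest was 0.857 of the whole range of the group, above Dixon's 95% critical value for 4 samples. Chance alone marks about 1 in 20 groups. Without that library the log2 fold change of NR1H4 was 0.14 with an adjusted p of 0.147 in edgeR, against 0.17 and 0.0597 with it.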

How the results depend on the processing

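NR0B2 kept its direction and its call in all 19 alternatives (adjusted p 0.000107 to 0.0179, edgeR, limma or DESeq2). The number of the 10 genes past the threshold was 1, and it was 2 with library size only, with voom sample weights and with the gene length correction, where NR1H4 also passed (adjusted p 0.0401, 0.0451 and 0.0412). Leaving out each library gave 1 to 2, with 2 only without I/R+DMSO replicate 4 (NR1H4 adjusted p = 0.0490, edgeR). The count over the wider lists was 15, and it was 8 with limma on log2(FPKM + 1) and on log2(FPKM + 0.1), 5 with limma and no filter, and 8 to 15 with each library left out. It was 9 without I/R+Rk2 replicate 2, 8 without replicate 3 and 9 without replicate 4. Over all genes the 2352 calls were 1123, 1106 and 970 in the same limma fits and 1293 to 2287 with each library left out. The lowest were 1293, 1467 and 1510, without I/R+Rk2 replicates 4, 2 and 3. The log2 fold change of CYP27A1 turned to 0.0123 with library size only and 0.0618 with sample weights, and ranged from -0.0777 to 0.1035 with a library left out. That of SLC51A turned to 0.0278 in both limma fits at a pseudocount of 1, 0.0403 at 0.1 and 0.0308 with the length correction, and ranged from -0.2262 to 0.0916 with a library left out. The log2 fold change of SLC51B ranged from -0.2348 to -0.0341 over the 19 alternatives, and was -0.0341 with the length correction. The CPM difference of CYP8B1 ranged from -0.00458, without I/R+DMSO replicate 1, to 0.0689. The cause was not tested for any of these. Levels per kilobase of exons in place of FPKM moved to 16.8 for SLC51B, 7.33 for NR1H4, 4.67 for CYP27A1 and 0.491 for SLC51A, a change of the length used.

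The labels number replicates in both groups but do not say that a number marks a shared culture or day. Deviations of same-numbered libraries correlated at 0.016, -0.0095, 0.0382 and 0.0845, so the numbers were not taken as pairs, and not every library correlated best with its own number. With a replicate block 1 of the 10 genes was past the threshold (NR0B2, log2 fold change 0.55, adjusted p = 0.0179, edgeR), 11 of the wider lists and 1815 of all genes.

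Depth limits CYP8B1, CYP7B1, ABCB11 and SLC10A1, which had at most 7 counts in a library, and SLC51A, whose interval spans both directions and which the filter of 50 counts removed.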
